A study of Mus musculus with 11 samples.

Results

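Genes of DNA repair and of the DNA damage checkpoint were followed as C2C12 cells, a mouse myoblast line, left proliferation and formed myotubes. The group holds 46 genes, listed by name and grouped by their roles, out of 16593 gene symbols on the array. Of the 46, 43 had a probe and 35 were tested, since at least 1 of their probes was detected (detection p under 0.05) in at least 3 samples of 1 day. Proliferating cells in growth medium (Day 0) and cells kept for 6 days in differentiation medium with a low content of horse serum (Day 6) were compared, with 5 samples of each day from the same cell line. Nothing in the labels says that the 5 samples of a day were separate cultures, so the p-values measure only the spread between these samples, which may be technical. A cell line model of this kind holds no other cells of a muscle, and a Day 6 culture can hold unfused cells beside myotubes.

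Cells mend broken or altered DNA by several routes. Homologous recombination copies an intact sister strand and therefore works after replication, in the S and G2 phases of the cell cycle, and the Fanconi proteins feed crosslinked DNA into it. Mismatch repair corrects errors left by replication, while base excision, nucleotide excision and end joining also act in cells that do not divide. Many genes of recombination, mismatch repair and the replication checkpoint are transcribed with the cell cycle through E2F factors, and a myotube nucleus has left the cell cycle for good.

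Repair genes were on balance lower in differentiated cells. At an adjusted p under 0.05 (limma over 8659 genes, Benjamini-Hochberg), 20 of the 35 tested genes (57.1%) were lower at Day 6, against 24.2% of all genes tested. Only 2 of the 35 (5.71%), Trp53bp1 and Neil1, were higher, against 21.1% of all genes, and 13 passed the threshold in neither direction. The median change was -0.67 on the log2 scale, with a range from -3.00 to 0.91, beside a median of -0.03 over all genes. By the fit, 14 genes fell by at least 2-fold (9.48% of all genes did), and 13 did with Chek1 at the lower bound given below. In 14 genes (40%) every Day 6 sample lay below every Day 0 sample, against 17.2% of all genes. The reverse held for 1, Trp53bp1, against 15.3% of all genes.

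**Figure D1:**
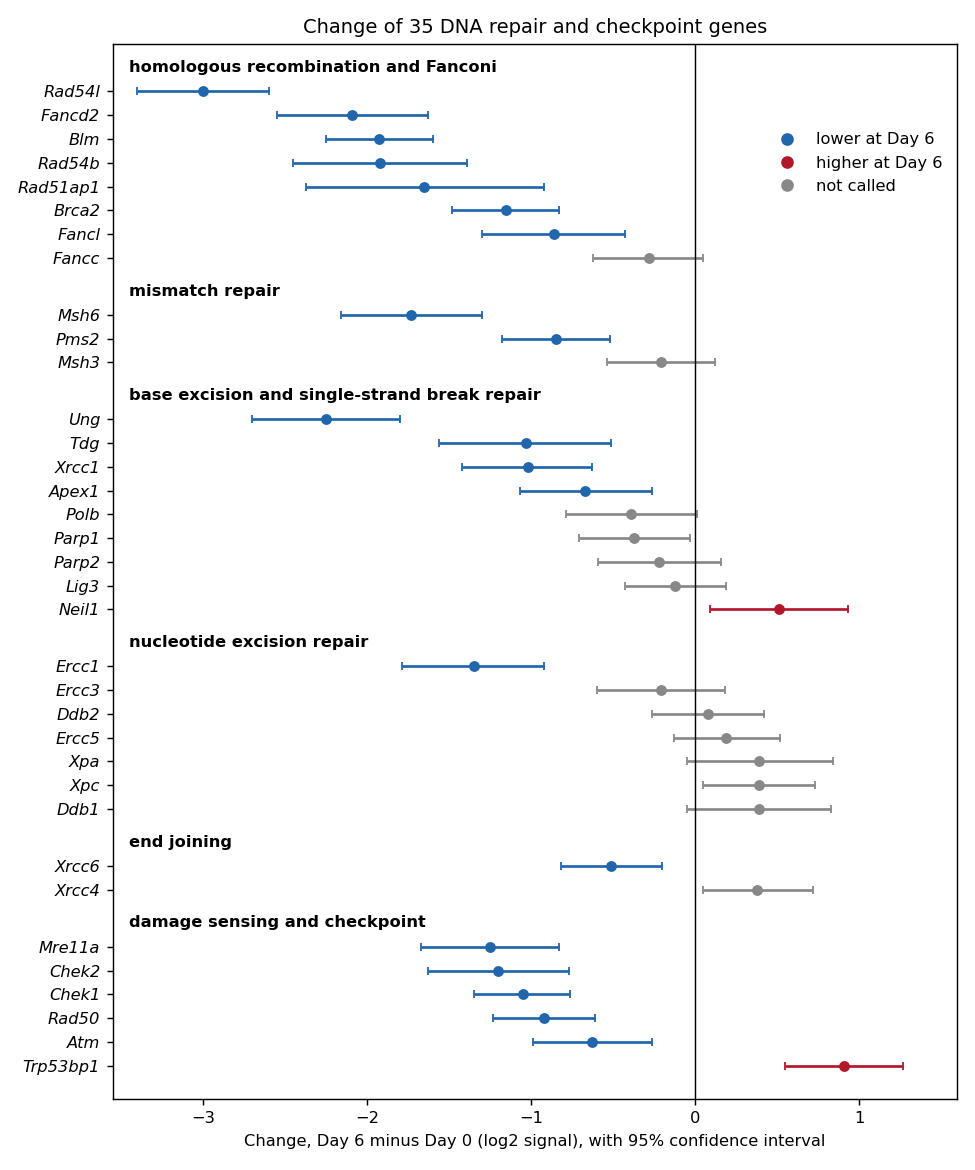
Change of each of the 35 tested genes, Day 6 minus Day 0 in log2 signal (horizontal axis), grouped by repair route; points are limma estimates over 5 samples a day and bars their 95% confidence intervals. The recombination and checkpoint genes lie left of 0 except Trp53bp1, with Rad54l farthest at -3.00, while those of nucleotide excision repair other than Ercc1 (-1.35) lie between -0.21 and 0.39.

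Because passing the filter on a single day favours a difference between the days, the genes detected on both days were also counted alone. Of 31 such genes, 17 (54.8%) were lower and 2 higher, against 24.6% lower among all genes of this kind. Another 4 passed the filter through Day 0 alone, and of these Rad51ap1, Fancl and Chek1 were lower and Msh3 was not called. Among all genes that passed through Day 0 alone, 230 of 475 were lower. None passed through Day 6 alone.

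A further 8 genes were on the array but too dim to test. They were Brca1 and Fancg of recombination, the exonuclease Exo1, the glycosylases Ogg1 and Neil3, the helicase Ercc2, the Ku subunit Xrcc5 and the break sensor Nbn. The brightest reading of each of their 12 probes lay between 52.1 and 62.9 signal units, close to the array medians. Counted by sample, a single detection was recorded among all of them. The Brca1 probe was also detected on an array of Day 0 replicate 5, though not in the mean for that sample. For Xrcc2, Fanca and Atr the annotation used listed no probe. The measurements below say nothing about these 11 genes.

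The state of the cultures was read from marker genes. All 7 proliferation markers on the array (Top2a, Ccna2, Cdk1, Plk1, Birc5, Pcna and Mcm2) fell, with a summed signal between 5530 and 7170 at Day 0 against 603 to 1120 at Day 6. All 7 myotube markers (Myog, Mef2c, Ckm, Myh8, Acta1, Tnnc2 and Mymk) rose, from a sum of 393 to 7100 to one of 39200 to 44700. Of 5 myoblast markers with a probe, Myod1, Des and Itga7 were detected and rose, and Myf5 and Pax7 were not detected. The lists for adipocytes, osteoblasts, macrophages, endothelial and epithelial cells had 2, 2, 1, 2 and 2 detected genes. In that order they were Pparg and Lep, Bglap and Alpl, Cd14, Kdr and Tek, and Cdh1 and Krt14. Genes of these lists that were not detected included Adipoq, Ptprc, Pecam1 and Krt8. Among the detected genes of these lists Bglap, an osteoblast gene, rose (2.73), while Pparg (-1.19), Cd14 (-1.04) and Krt14 (-2.55) fell. Lep, Alpl, Kdr, Tek and Cdh1 were not called. Summed osteoblast signal lay between 58.6 and 121 at Day 0 and between 251 and 337 at Day 6, with Ibsp, Sp7 and Dmp1 not detected, and the epithelial sum went from 473 to 1490 down to 137 to 224, with Krt18 not detected either. Whether the fall of the repair genes moved with the share of cycling cells was not tested, and in bulk RNA fewer cells of a type and less RNA per cell cannot be told apart.

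A single Day 0 sample stood apart. Replicate 5, which was hybridised to 2 arrays and averaged, had a mean myotube marker level of 8.50, against 5.18 to 6.41 in the other 4 Day 0 samples and 11.66 to 11.96 at Day 6. Its proliferation markers, at a mean of 8.60, stayed within the Day 0 range of 8.58 to 9.09 and above all Day 6 samples (6.12 to 6.75). It had the lowest Day 0 value in 13 of the 20 genes called lower, and in 19 of the 35 tested, against 3060 of all 8659 genes. In the 20 genes it lay a median of 0.45 log2 units below the mean of the other Day 0 samples (a difference of -0.45), against -0.05 over all genes. Without it, 22 genes were lower and 2 higher, and the median change was -0.73. Ercc3 and Polb joined the lower genes in that fit, and Ddb1 (0.55, adjusted p = 0.0176) replaced Neil1 (adjusted p = 0.0793) among the higher ones.

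**Figure D2:**
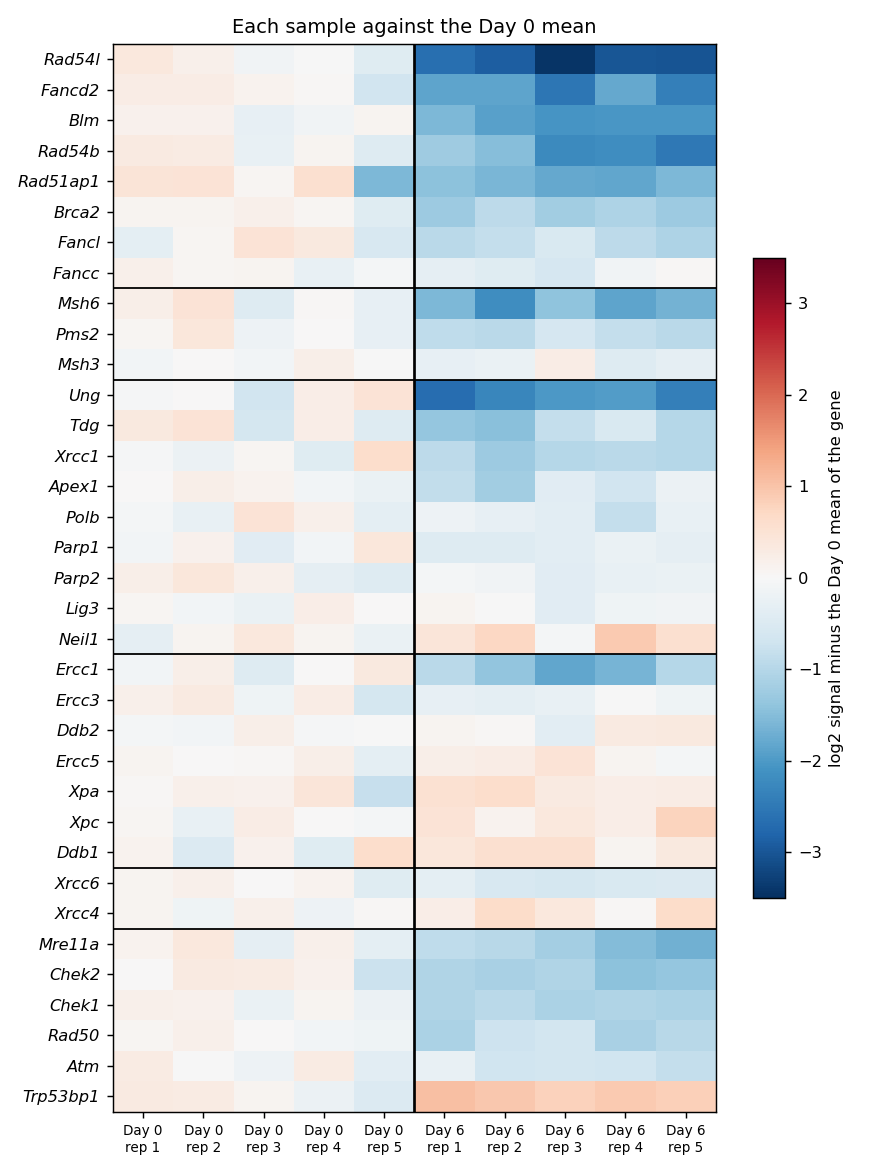
Log2 signal of each tested gene in each sample minus the gene's Day 0 mean (colour scale), with Day 0 samples to the left of the vertical line, Day 6 samples to its right and horizontal lines between repair routes. Rad54l and Ung are dark in all 5 Day 6 columns, and the Day 0 replicate 5 column is pale blue in most recombination and checkpoint rows, with Rad51ap1 at its Day 6 level (4.67 against 4.44 to 4.81).

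Promoter sequences were read for the genes because many of them are known E2F targets. RefSeq (GRCm38.p6) gave windows of 300 bases, from 250 before to 50 after a transcription start, for 36 of the 46. The E2F letters TTTCCCGC, TTTGGCGC, TTTCGCGC and TTTGCCGC, searched on both strands, occurred in 6 of the 36 (16.7%), against 704 of 27025 genes (2.6%). Of the genes with a match, Brca2, Chek2, Xrcc6 and Msh6 were called lower, Msh3 was not called and Fancg was too dim to test. These letters were thus in 4 of 17 genes called lower that had a window (23.5%), and most lower genes lacked them. They were in 1 of 9 of those not called and in 1 of 8 of those too dim or without a probe. Among genes on the array, 7.72% of those called lower held these letters, 3.98% of those not called and 2.35% of those called higher. Below are stretches of 60 bases for the 4 tested genes whose letters lie before the start, each 5′ to 3′ on the strand of its gene, with the E2F letters in capitals. They come from chr5:150522427-150522486 (plus strand, Brca2), chr5:110839805-110839864 (plus strand, Chek2), chr15:82016297-82016356 (plus strand, Xrcc6) and chr13:92355172-92355231 (minus strand, Msh3).
Brca2: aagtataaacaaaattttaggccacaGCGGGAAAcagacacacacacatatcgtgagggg
Chek2: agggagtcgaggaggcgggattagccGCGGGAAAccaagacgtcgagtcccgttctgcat
Xrcc6: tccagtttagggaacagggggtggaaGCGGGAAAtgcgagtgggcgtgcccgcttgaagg
Msh3: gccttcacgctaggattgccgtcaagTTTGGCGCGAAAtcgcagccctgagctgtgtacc
Brca2, Chek2 and Xrcc6 carry the same 8 letters on the opposite strand, and Msh3 carries TTTGGCGC and, overlapping it on the other strand, TTTCGCGC. CCAAT boxes (the letters CCAAT, both strands) were present in 12 of 17 genes called lower that had a window (70.6%). Such boxes were present in 3 of 9 of those not called and in 5 of 8 of those too dim or without a probe (62.5%). They were present in 41.1% of all genes and in 47.5% of all array genes called lower. The letters TTTGAA, a form of the element named CHR, were present in none of the 17, against 20.2% of all genes and 15.7% of all array genes called lower. Such matches describe the letters in the window and nothing about the binding of a factor.

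Homologous recombination and the Fanconi pathway had the largest median fall of the 6 routes. Of 12 genes, 8 were tested, 7 were lower (87.5%, against 24.2% of all genes) and none was higher. Among the 7, Rad51ap1 and Fancl had passed the filter through Day 0 alone, which favours a fall. The median change was -1.78, with a range of -3.00 to -0.28. The mean level of the 8 was 7.19 to 7.35 in Day 0 replicates 1 to 4, 6.64 in replicate 5 and 5.35 to 5.74 at Day 6. Rad54l, a motor protein of strand exchange, had a log2 signal of 8.57, 8.37, 8.07, 8.18 and 7.77 in Day 0 replicates 1 to 5 and of 5.56, 5.32, 4.75, 5.19 and 5.16 in Day 6 replicates 1 to 5. The lowest Day 0 sample was thus more than 2 log2 units above the highest Day 6 sample. Rad54l was lower at Day 6 by 7.98-fold (log2 change -3.00, SE 0.19, adjusted p = 5.81e-08).

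Fancd2, the protein that is ubiquitinated when a fork meets a crosslink, stood at 7.61, 7.61, 7.48, 7.38 and 6.68 at Day 0 and at 5.50, 5.51, 4.81, 5.56 and 4.97 at Day 6. The days did not overlap, although Day 0 replicate 5 lay well under the other 4. Its change was -2.09 (SE 0.21, 4.25-fold, adjusted p = 4e-06), and -2.25 without that sample. Fancl, the ligase that ubiquitinates Fancd2, was also lower (-0.86, adjusted p = 0.00343), though its days overlapped. For Fancc, of the Fanconi core complex, the change was -0.28 with a 95% confidence interval from -0.62 to 0.05 (adjusted p = 0.154).

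Other recombination genes fell in the same direction. Blm, a helicase that takes apart joined DNA molecules, was lower by 1.93 log2 units (change -1.93, adjusted p = 3.62e-07), and Rad54b, a relative of Rad54l, changed by -1.92 (adjusted p = 2.93e-05). Brca2, which works at an early step of recombination, was between 5.91 and 6.52 at Day 0 and between 5.07 and 5.42 at Day 6 (-1.15, adjusted p = 3.67e-05). None of these 3 overlapped between the days, and a second probe of Blm and of Brca2 was lower as well (-1.86 and -1.04), although that of Brca2 was detected in only 1 of 5 Day 6 samples.

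Rad51ap1, which promotes strand invasion, had 1 Day 0 sample at its Day 6 level. Its signal was 6.71, 6.72, 6.33, 6.82 and 4.67 in Day 0 replicates 1 to 5 and 4.81, 4.65, 4.45, 4.44 and 4.68 at Day 6. Replicate 5 of Day 0 thus lay within the Day 6 range, and the other 4 lay above it. The change was -1.65 (SE 0.34, adjusted p = 0.00131) with that sample and -2.04 (adjusted p = 2.05e-07) without it. Since Rad51ap1 was detected in only 1 of 5 Day 6 samples, the size of both changes is limited by the background. The exact permutation test, two-sided, gave p = 0.0238, the smallest possible value being 0.00794.

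**Figure D3:**
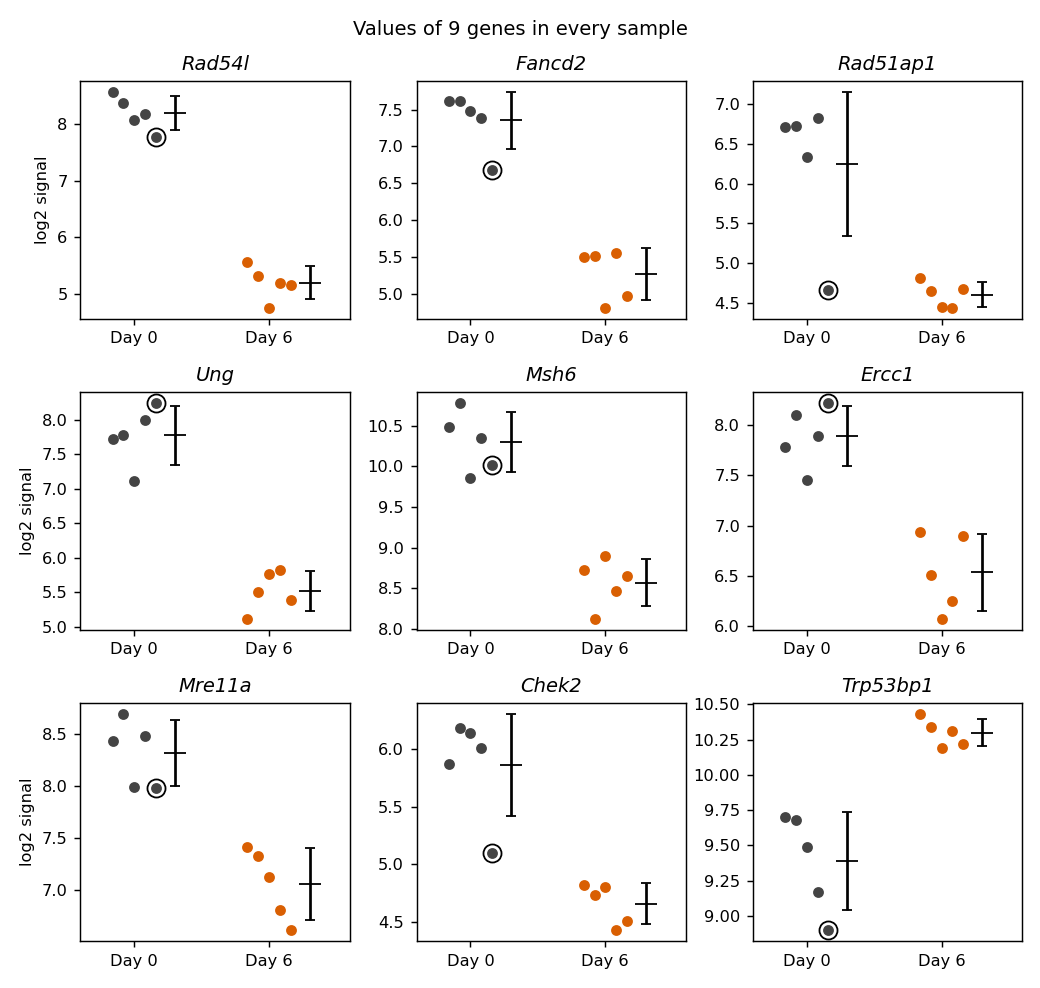
Log2 signal of 9 genes in each of 5 Day 0 (grey) and 5 Day 6 (orange) samples, in the order of the replicates, with the mean and SD to the right of each group and Day 0 replicate 5 circled; vertical scales differ and do not start at 0. The days are apart in each gene but Rad51ap1, where the circled sample (4.67) lies among the Day 6 samples, and Trp53bp1 alone is higher at Day 6.

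Mismatch repair was measured through 3 of 4 genes, of which 2 were lower (66.7%, against 24.2% of all genes). Msh6, which finds single mispaired bases, had 10.49, 10.78, 9.85, 10.35 and 10.02 at Day 0 and 8.72, 8.12, 8.89, 8.46 and 8.65 at Day 6. Every Day 6 value was below the Day 0 values, and the gene was 3.32-fold lower (log2 change -1.73, SE 0.20, adjusted p = 1.13e-05), with -1.65 from its second probe. Pms2, which nicks the faulty strand, had 6.38, 6.70, 6.13, 6.33 and 6.04 at Day 0 and 5.42, 5.36, 5.72, 5.47 and 5.37 at Day 6. Its days did not overlap either, and its fall was smaller, at 1.80-fold (-0.85, SE 0.15, adjusted p = 0.000493). Msh3, which recognises larger loops, was near the detection limit, with a change of -0.21 (95% confidence interval -0.54 to 0.12, adjusted p = 0.281).

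Base excision and single-strand break repair was mixed. Of 9 tested genes, 4 were lower (44.4%, against 24.2% of all genes), 1 was higher (11.1%, against 21.1%) and 4 were not called (median -0.39). Ung, the glycosylase that removes uracil from DNA, had 7.72, 7.78, 7.11, 8.0 and 8.24 at Day 0 and 5.11, 5.50, 5.76, 5.82 and 5.39 at Day 6. It was the gene of this route with the largest change, 4.77-fold (-2.25, SE 0.21, adjusted p = 1.59e-06), and here Day 0 replicate 5 was the highest sample. A second Ung probe was lower too, but it was detected in 1 of 5 Day 6 samples, so the size of its fall (-1.07) is limited by the background.

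Tdg, which removes thymine or uracil paired with guanine, had 8.42, 8.54, 7.45, 8.30 and 7.62 at Day 0 and 6.71, 6.61, 7.23, 7.52 and 7.08 at Day 6. Day 6 replicate 4 lay above Day 0 replicate 3, so the days overlapped, and the gene was lower by 2.05-fold (-1.03, SE 0.24, adjusted p = 0.00344). Xrcc1, the scaffold of single-strand break repair, fell by a like amount with no overlap, from 7.30 to 8.35 at Day 0 to 6.45 to 6.82 at Day 6 (-1.02, adjusted p = 0.000508). Apex1, the endonuclease that cuts at a site without a base, was lower by 1.59-fold with overlap (-0.67, adjusted p = 0.0101).

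The remaining genes of this route moved little. Neil1, a glycosylase for oxidised bases, had 4.54, 4.93, 5.20, 4.93 and 4.61 at Day 0 and 5.26, 5.57, 4.77, 5.77 and 5.39 at Day 6. Day 6 replicate 3 lay below 3 Day 0 samples. The call of Neil1 as higher (0.51, SE 0.20, adjusted p = 0.0477) was lost in 18 of 22 other settings, with adjusted p from 0.00996 to 0.134 over them. Polb, which fills the gap (-0.39, 95% confidence interval -0.79 to 0.01), and Lig3, which seals it (-0.12, -0.43 to 0.19), were not called.

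Parp1 and Parp2, which mark breaks with poly(ADP-ribose), gave calls that depended on the probe. The Parp1 probe used had 9.88, 10.13, 9.59, 9.89 and 10.38 at Day 0 and 9.52, 9.51, 9.60, 9.74 and 9.66 at Day 6, a change of -0.37 (adjusted p = 0.0718). Day 6 values lay in a narrow band around the lowest Day 0 sample. Its other 2 probes changed by -0.41 (adjusted p = 0.0305) and 0.03. The Parp2 probe used had 9.99, 10.18, 9.97, 9.49 and 9.33 at Day 0 and 9.71, 9.67, 9.40, 9.52 and 9.56 at Day 6, so that the days overlapped (-0.22, adjusted p = 0.335). A second Parp2 probe changed by -0.43 (adjusted p = 0.0462).

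Nucleotide excision repair, which removes bulky lesions such as those of ultraviolet light, had 1 lower gene and no higher one among 7 tested, with a median change of 0.19. That share of lower genes (14.3%) was near the 24.2% of all genes. At Day 0 the mean level of the 7 lay between 7.81 and 7.99, and at Day 6 between 7.83 and 8.01. Ercc1, part of the nuclease that cuts on the 5′ side of the lesion, was the exception, with 7.78, 8.10, 7.45, 7.89 and 8.22 at Day 0 and 6.94, 6.51, 6.07, 6.25 and 6.90 at Day 6. Its days did not overlap, and it was 2.56-fold lower (-1.35, SE 0.20, adjusted p = 0.000118). The nuclease of the 3′ side, Ercc5, changed by 0.19 (95% confidence interval -0.13 to 0.52).

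Damage recognition by Xpc, Ddb1 and Ddb2, and its checking by Xpa, gave changes of 0.39, 0.39, 0.08 and 0.39. With 95% confidence intervals of 0.05 to 0.73, -0.05 to 0.83, -0.26 to 0.42 and -0.05 to 0.84, no fall of 2-fold lay within the interval of any of the 4, and none was called (adjusted p from 0.0576 to 0.711). Ercc3, a helicase of the transcription factor TFIIH, had 10.80, 10.96, 10.49, 10.89 and 10.03 at Day 0 and 10.36, 10.29, 10.38, 10.62 and 10.48 at Day 6. Its Day 0 replicate 5 was below all Day 6 samples and its other Day 0 samples were mostly above them (-0.21, adjusted p = 0.373). Without that sample its change was -0.36 (adjusted p = 0.0434), and a second probe was lower (-0.69, adjusted p = 0.00138).

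End joining, which rejoins broken ends without a template, was represented by 2 tested genes that differed in sign. Xrcc6, a subunit of the Ku ring that slides onto broken ends, had 10.91, 10.97, 10.81, 10.93 and 10.39 at Day 0 and 10.45, 10.25, 10.19, 10.27 and 10.30 at Day 6. All Day 0 samples except replicate 5 lay above the Day 6 samples, and the gene was lower by 1.42-fold (-0.51, SE 0.14, adjusted p = 0.0108). Of its other 2 probes, the change was -0.73 (adjusted p = 0.00182) in 1 and -0.34 (adjusted p = 0.286) in the other. For Xrcc4, the partner of the ligase of this route, it was 0.38 (95% confidence interval 0.05 to 0.72, adjusted p = 0.0602).

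The tested damage sensing and checkpoint genes were all called, 5 of 6 as lower (83.3%, against 24.2% of all genes). Among the 5, Chek1 had passed the filter through Day 0 alone, which favours a fall. Mre11a, the nuclease of the complex that first binds broken ends, had 8.43, 8.69, 7.99, 8.48 and 7.98 at Day 0 and 7.42, 7.33, 7.13, 6.81 and 6.62 at Day 6. It was 2.38-fold lower with no overlap (-1.25, SE 0.20, adjusted p = 0.000168), and its 3 probes agreed on the call. Rad50, which tethers the ends in the same complex, was lower as well (-0.92, adjusted p = 0.000178) with no overlap.

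The checkpoint kinases fell together. Chek2, which acts downstream of Atm, had 5.87, 6.18, 6.14, 6.01 and 5.10 at Day 0 and 4.82, 4.73, 4.80, 4.43 and 4.51 at Day 6. The days were apart by 0.28 at their closest, where Day 0 replicate 5 was again the lowest of its day, and the gene was 2.30-fold lower (-1.20, SE 0.20, adjusted p = 0.000273). Chek1, which acts downstream of Atr at stalled forks, was between 5.20 and 5.62 at Day 0 and not detected on any Day 6 array. By the probe used it was therefore at least 1.68-fold lower (adjusted p = 3.35e-05). The bound sets the Day 0 mean of that probe against the lowest signal counted as detected on each Day 6 array. A second probe, also undetected on every Day 6 array, was lower too (-0.71 by the fit, adjusted p = 0.000482). The size of its fall is likewise limited by the background, so the 2 probes cannot be ranked by size. The 6 genes had a median change of -0.99 by the fit, or -0.83 with Chek1 at that bound.

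Atm, the kinase that answers to broken ends, had 6.70, 6.38, 6.22, 6.70 and 6.03 at Day 0 and 6.15, 5.72, 5.77, 5.71 and 5.56 at Day 6. Its days overlapped through Day 6 replicate 1 and Day 0 replicate 5, and it was lower by 1.54-fold (-0.63, SE 0.17, adjusted p = 0.00867). Its other 2 probes changed by -0.85 (adjusted p = 0.000843) and -0.16 (adjusted p = 0.433).

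Trp53bp1 was the exception among these genes. The protein binds chromatin beside breaks and favours end joining over recombination. Its signal was 9.70, 9.68, 9.49, 9.17 and 8.90 at Day 0 and 10.43, 10.34, 10.19, 10.31 and 10.22 at Day 6. The lowest Day 6 sample exceeded the highest Day 0 sample, and Trp53bp1 was 1.88-fold higher (0.91, SE 0.17, adjusted p = 0.000649). It was called higher in all 23 other settings, but none of them used its second probe. That probe gave 0.31 (adjusted p = 0.116) and was not called.

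**Figure D4:**
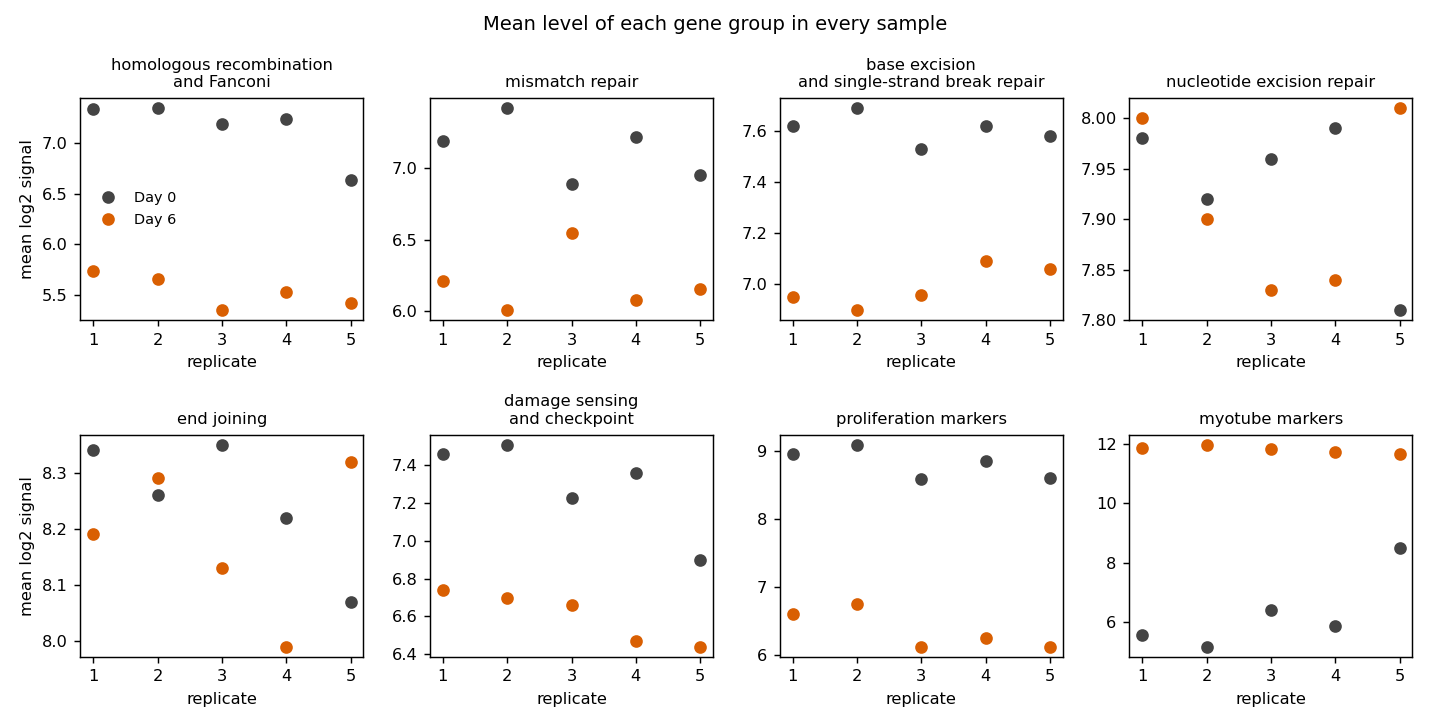
Mean log2 signal of the tested genes of each repair route and of 2 marker lists (vertical axes, which differ and do not start at 0) in each sample, Day 0 in grey and Day 6 in orange; equal replicate numbers do not pair samples. Recombination genes are at 6.64 or more at Day 0 and at 5.74 or less at Day 6, nucleotide excision genes overlap between 7.81 and 8.01, and Day 0 replicate 5 is raised in myotube markers (8.50).

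The genes had 83 probes, of which 57 passed the detection filter and were kept. Agreement between probes could be checked for 18 genes with 2 or more kept probes, and in 12 of them all kept probes had the same call. Rad50 and Chek2, for example, each had 1 kept probe of 3, so their calls could not be checked in this way. Over probes, 23.8% of 12753 were lower and 20.5% higher. In Atm, Ercc3, Parp1, Parp2, Xrcc6 and Trp53bp1 the calls differed, and only in Parp1 did 2 probes differ in sign. Probes can match different transcripts of a gene, which was not tested.

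**Figure D5:**
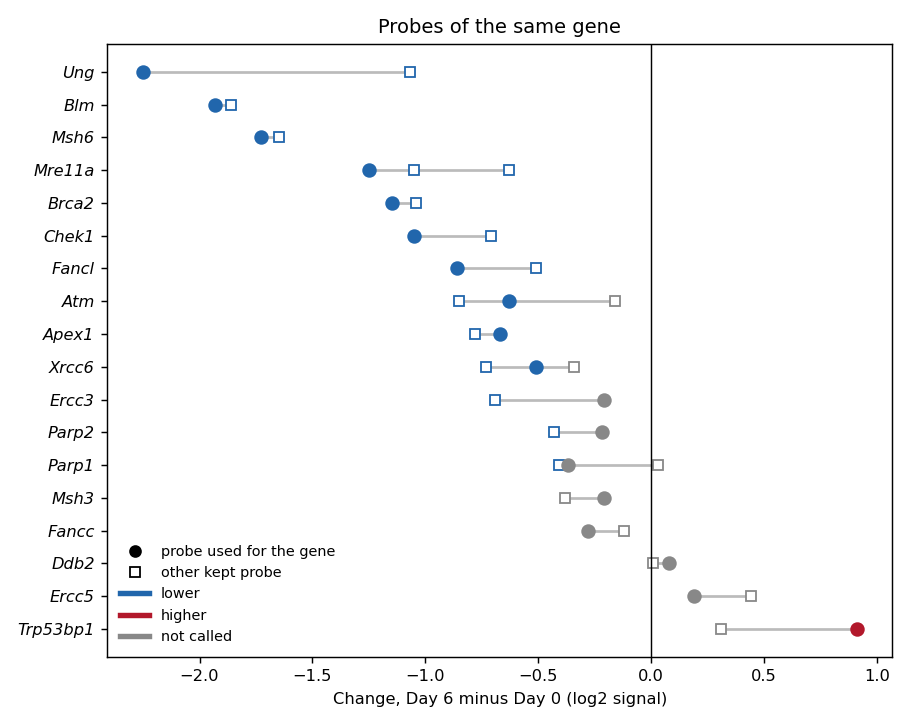
Change of each kept probe, Day 6 minus Day 0 in log2 signal (horizontal axis), for the 18 genes with 2 or more such probes; filled circles are the probe used for the gene, open squares its other probes, and colour gives the call over probes. Probes of Blm, Msh6 and Brca2 lie close together, while those of Trp53bp1 (0.91 and 0.31) lie apart, as do those of Ung (-2.25 and -1.07), whose second probe was detected in 1 of 5 Day 6 samples.

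A further element of the sample labels, E1 to E4, has no stated meaning and may mark a batch. Each of the 4 contains samples of both days, in E2 and E4 a single sample of each. When the days were compared inside E1, E2, E3 and E4, 18 of the 20 genes called lower were below 0 in all 4. The others, Rad51ap1 (0.00) and Apex1 (0.04), missed this in E4, which holds Day 0 replicate 5. Trp53bp1 and Neil1 were above 0 in all 4. All of these genes were called from the same samples, so the signs inside each part are no independent evidence. With E1 to E4 as a block, 20 genes were lower and 2 higher, Neil1 losing its call (adjusted p = 0.0661) and Xrcc4 gaining one (0.41, adjusted p = 0.0398).

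For context, 88 further repair and checkpoint genes were listed by the same routes, of which 55 were tested. Of these, 28 (50.9%) were lower, against 24.2% of all genes, and 3 higher, against 21.1%. The days were apart in 24 of the lower genes (43.6% of those tested, against 17.2% of all genes) and in all 3 of the higher. Of the 28, 7 had passed the filter through Day 0 alone (Bard1, Fanci, Ube2t, Top3a, Recql4, Timeless and Pcna). All 7 were among the 24 whose days were apart, which passing through a single day also favours. Of the 46 genes that passed on both days, 21 (45.7%) were lower, against 24.6% of all such genes. The median change was -0.43, or -0.38 with the 6 genes undetected on every Day 6 array at their bounds. In recombination and Fanconi repair 9 of 14 were lower, with the largest fall in Usp1, which removes ubiquitin from Fancd2 (-1.86, adjusted p = 0.000105). The single rise was in Rad52, which anneals single strands (0.56, adjusted p = 0.00484). Base excision had 5 of 10 lower, led by the flap nuclease Fen1 (-2.50, adjusted p = 9.93e-08). Nucleotide excision had 5 of 11 lower (45.5%, against 14.3% of the 7 genes of that route above), led by Rpa2 (-1.39, adjusted p = 0.000161).

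The Rpa genes bind single-stranded DNA and also serve replication, as Fen1 does. The other lower genes of nucleotide excision were Gtf2h4 (-1.04, adjusted p = 0.000179) and Rad23b (-0.43, adjusted p = 0.0414). In end joining 1 of 3 was lower, the polymerase Polm (-0.65, adjusted p = 0.00652), and in mismatch repair the sole tested gene, Mlh3, was not called (-0.10, adjusted p = 0.719). Checkpoint genes had 8 of 16 lower, with the largest fall in Clspn, which helps Atr to activate Chek1 (-2.72, adjusted p = 1.81e-08). The 2 that rose were Gadd45a, a stress-induced gene (2.63, adjusted p = 1.3e-05), and Cdkn1a, an inhibitor of cyclin-dependent kinases that myoblasts also switch on as they leave the cell cycle (2.53).

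Measured error bounded these statements. The median SD between samples of a day was 0.30 at Day 0 and 0.22 at Day 6 over the 35 genes, close to 0.31 and 0.23 over all genes. The 2 arrays of Day 0 replicate 5 differed by a median of 0.22 over the same genes. The median signal of a sample ranged from 57.2 to 64.3 units and the share of probes detected from 43.7% to 48.7%.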

How the data were processed

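Total RNA of 5 Day 0 and 5 Day 6 samples of C2C12 cells was measured on Illumina MouseRef-8 v2.0 arrays. The authors extracted probe signals with GenomeStudio 2011.1. The deposited intensities had neither been background-subtracted nor normalized across arrays (lowest value 34), and each came with a detection p-value. The deposited score of each probe is a Z-score of the log signal within its array, which was recomputed to within 0.005. It served only as an alternative. All signal columns were mapped to a sample.

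Signals were background-corrected and quantile normalized with neqc (offset 16, controls inferred from detection p) in R 4.3.3 with limma 3.58.1, and plots were drawn in Python 3.11.15 with matplotlib 3.10.9. Values are log2 signals. For Day 0 replicate 5, normalized values and detection p-values were means of its 2 arrays. Of 25697 probes, 12753 passed the detection filter (p under 0.05 in 3 or more samples of a day). The brightest kept probe, by mean log2 signal, stood for its gene. Gene symbols came from the platform annotation (23978 probes with a symbol, 1719 without), updated through gene identifiers. The 8659 genes were fitted with lmFit and eBayes without covariates and the threshold was an adjusted p of 0.05 (Benjamini-Hochberg). A quantile-normalized signal is relative to the other genes of its array, and neqc with its offset shrinks the changes of dim genes.

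The genes and lists were chosen with earlier results of these data known. Each tested gene was named by route. Values in every sample were given for the 2 called genes with the largest fall in each route, for those that rose and for those whose probes disagreed. Rad51ap1 was given in full after its values were seen. Of the further repair genes, the largest fall and rise in each route were named, and Cdkn1a, Gtf2h4 and Rad23b were added after their values were seen. Promoter windows came from RefSeq GRCm38.p6, and all windows of a gene were pooled (32851 windows for 27025 genes). A gene with several windows thus had more bases searched.

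The limma fit was tested on simulated log2 values with changed genes of known size. Background correction, normalization, the detection filter and the choice of probe were not part of that test. Alternatives covered background correction, normalization, the Z-scores, the detection filter, either array of replicate 5, a robust trend, a block for E1 to E4 or for the replicate number, the choice of probe and each sample left out. A fit without the E4 samples was chosen after seeing the data.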

Additional observations from a re-analysis of the deposited data

Results flagged for a closer look

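Among 70 groups of 5 values (35 genes on 2 days), 6 held a sample whose gap to its nearest neighbour exceeded the critical share of the range for Dixon's test (0.71), and chance gives about 1 in 20 groups. In 4 of the 6 the sample was Day 0 replicate 5 and it was low. Brca2 was at 5.91 in that sample, with the nearest Day 0 value at 6.41. Rad51ap1 was at 4.67, with the nearest at 6.33. Fancd2 was at 6.68, with the nearest at 7.38, and Xrcc6 was at 10.39, with the nearest at 10.81. The same sample was high in myotube markers (mean 8.50, against 5.18 to 6.41 in the other Day 0 samples), and the part of this in the 4 low values was not tested. In the other 2 groups, Xrcc1 was low in Day 6 replicate 2 (6.45, nearest 6.73) and Ddb2 was high in Day 0 replicate 3 (6.11, nearest 5.89).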

How the results depend on the processing

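The count of genes lower at Day 6 was 16 to 22 over the 23 alternatives, against 20, and the direction of all 22 calls was kept wherever they were tested. Between 20 and 22 of the 22 calls were kept, except with detection required in all 10 samples, where 17 were kept and the other 5 (Rad51ap1, Fancl, Chek1, Chek2 and Neil1) were not tested. Neil1 lost its call in 18 of 22 alternatives, and Xrcc6 with the probe of largest SD (-0.34, adjusted p = 0.288). The count of higher genes, 2, was 1 with equal array medians, with the deposited Z-scores, with no detection filter, with detection in all 10 samples, with the probe of largest SD and with the replicate block. Leaving out 1 sample gave 1 to 4, with 4 without Day 0 replicate 3. The median change, -0.67, was -0.50 without background correction, -0.49 with normexp without controls, -0.84 with equal array medians, -0.37 with no detection filter (43 genes), -0.85 with the probe of largest SD, -0.78 to -0.61 with 1 sample left out and -0.84 without both E4 samples, a setting added after the data were seen. Ddb2 changed sign with equal array medians (-0.02) and Parp1 with the probe of largest SD (0.03), neither being called. Some genes not called in the main fit gained a call in a few alternatives. Xpc and Xrcc4 were each called higher in 4 of 23, and Ddb1 in 2. Parp1 was called lower in 4 of 23, Ercc3 in 2, Parp2 in 1 and Polb in 2 of 22. Equal array medians moved the median of all genes to -0.13, lowered the count of genes higher at Day 6 from 1825 to 1155 and raised the share of lower genes among all calls to 64.2%, against 53.5% with quantile normalization. The causes were not tested.

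The replicate numbers were not shown to pair the samples: deviations of equal numbers correlated at -0.01, 0, -0.24, -0.13 and 0.19, and no sample correlated best with its own number. With the replicate block 20 genes were lower and 1 higher, and over all genes 1992 were lower and 1710 higher. Genes near the detection limit, such as Chek1, Rad51ap1, Fancl and Msh3, have changes that the background compresses.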
